A study of Mus musculus with 6 samples.

Results

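Mitochondrial ribosomal proteins were taken as all protein-coding genes whose mouse symbol begins with Mrpl or Mrps followed by a number. The rule gave 78 of the 24190 genes in the count table, 49 named for the large subunit and 29 for the small subunit. All but Mrpl53 passed the expression filter, which left 77 members, 48 large and 29 small, among 14692 genes tested. The rule used names only and no measured value.

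The mitochondrial ribosome is built in the mitochondrial matrix from ribosomal RNAs encoded by the mitochondrial genome and proteins encoded in the nucleus, made in the cytosol and imported. It translates the few mRNAs of the mitochondrial genome, all of which encode subunits of the respiratory chain and the ATP synthase. Many of its proteins have counterparts in bacterial ribosomes, and others are found in mitochondrial ribosomes only. In the intestinal epithelium these transcripts are made in every cell and mark no cell type.

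RNA was sequenced from MTO54, a single mouse tumor organoid (MTO) line of AKP genotype, so both groups carried the same tumor alleles and stand for 1 line. Single cells were seeded in basement membrane extract with stem cell medium, and from day 2 after seeding 3 cultures received Folfiri for 2 days, as the labels give it, while 3 control cultures received medium. Folfiri consisted of 5FU, a fluoropyrimidine that disturbs nucleotide and RNA metabolism, at 50 µg/µl as the labels write it, and SN38, an inhibitor of topoisomerase I, at 100 nM. The 3 samples of a group are described as biological replicates, and the p values measure the spread between these cultures of 1 line.

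The samples held 22103591 to 30098210 counts on genes. Epithelial markers defined the cultures in both groups, with 8 of 8 at 1 CPM or more (CPM, counts scaled to library size with TMM normalisation). Of 8 fibroblast and 12 immune markers, of which 7 and 11 were in the table, 0 and 1 reached 1 CPM in controls and 1 and 2 did after Folfiri. Col3a1, Pdgfrb, Thy1 and Itgam were at 0 in controls. Of the markers tested, Dcn, Pdgfra, Ptprc, Adgre1 and Fcer1g rose and Col1a1 fell, all from levels below 1 CPM, and the fibroblast sum was 1.08 to 1.44 CPM in controls and 2.06 to 2.45 CPM after Folfiri. The immune sum was 21.7 to 26.4 CPM in controls and 23.2 to 24.0 CPM after Folfiri, and the part of these markers in the results below was not tested. Cd68 was at 23.6 CPM in controls and 20.5 CPM after Folfiri, while Ptprc, the pan-leukocyte marker, was at 0.396 and 1.06 CPM. The summed epithelial markers ranged from 5976 to 6945 CPM in controls and from 4817 to 4991 CPM after Folfiri. Cdx2, Epcam, Cldn7, Krt19 and Krt8 fell, Cdh1 rose, and Krt18 and Vil1 did not pass. With scaling by total counts alone, Krt8 lost its call (log2 fold change 0.0047). With the trend of fold changes with exonic length taken out, Cdh1 lost its call (0.067) and Vil1 was called lower (-0.29). Vil1 was also called lower with the trend with genomic span taken out (-0.30). In bulk RNA, fewer cells of a kind and less RNA per cell cannot be told apart.

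More of the 77 tested members rose than fell after Folfiri. In edgeR's quasi-likelihood test, with Benjamini-Hochberg adjustment over all tested genes and a threshold of 0.05, 41 members rose (53.2%), 16 fell (20.8%) and 20 did not pass. Across all tested genes, 79.1% passed, 40.3% as higher and 38.8% as lower. The median log2 fold change was 0.26 over the members and 0.02 over all tested genes. Rises of at least 2-fold were found for 7 of 48 large and 5 of 29 small members, not far from the 19.5% of all tested genes. The corresponding falls were rarer, with 1 of 48 large and 0 of 29 small members, against 16.8% of all tested genes. Counts of falls depended on the scaling, since scaling by total counts alone shifted the median of all genes by 0.28 on the log2 scale and left 51 members higher and 4 lower. A change of scaling moves all genes by nearly the same amount. By construction, then, the medians of both subunits relative to the median of all genes were 0.25 (large) and 0.23 (small) under either scaling. Their differences from that median were -0.028 (large) and -0.055 (small) without the expression filter and -0.032 and -0.059 in DESeq2's Wald test, where genes with few counts enter the median of all genes.

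Rises outnumbered falls in both subunits. Of 48 large subunit members, 26 rose, 10 fell and 12 did not pass, with a median log2 fold change of 0.27 and a range from -1.16 to 1.76. Of 29 small subunit members, 15 rose, 6 fell and 8 did not pass, with a median of 0.25 and a range from -0.44 to 1.42. Symbols do not always give the position in the ribosome, because Mrps18a and Mrps30 are found in the large subunit and Mrps36 is better known as a component of the 2-oxoglutarate dehydrogenase complex. By position, 27 of 50 large subunit members rose and 11 fell, with a median of 0.27, and 14 of 26 small subunit members rose and 4 fell, with a median of 0.35. These counts leave out ribosomal proteins with other names, such as Dap3 (log2 fold change -1.16), which are given below. Members with a bacterial counterpart were higher in 25 of 46 cases and lower in 8 (median 0.38), and those without one were higher in 16 of 30 and lower in 7 (median 0.24).

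**Figure D1:**
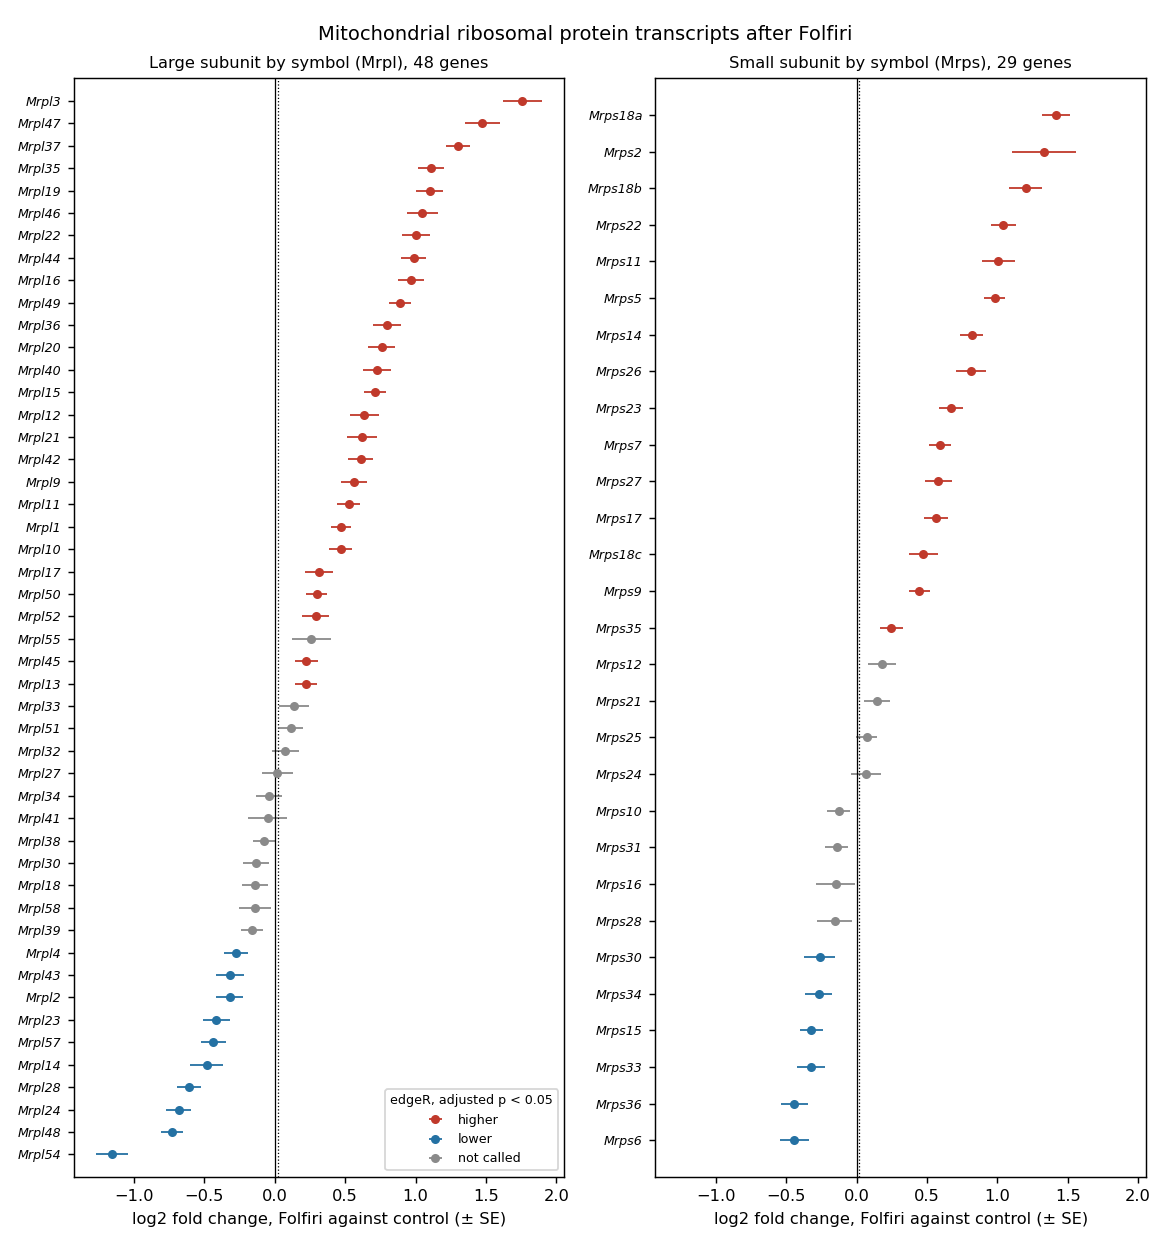
Log2 fold change of each tested member (Folfiri against control, ± SE from edgeR), with the 48 large subunit genes on the left and the 29 small subunit genes on the right, red for higher, blue for lower and grey for not past the threshold. The dotted line is the median of all tested genes (0.02), and members extend from Mrpl54 at -1.16 to Mrpl3 at 1.76.

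Mrpl3, a core protein with a bacterial counterpart, had the largest rise of all members. The gene (ENSMUSG00000032563) lies at chr9:105053239-105079888 of GRCm38 on the plus strand, and its exons overlap those of Gm38077 on the same strand and Gm47106 on the opposite strand. Its level was 29.3, 19.6 and 19.7 CPM in control replicates 1, 2 and 3, and 74.8, 79.4 and 79.0 CPM in Folfiri replicates 1, 2 and 3. Every Folfiri sample was above every control, and control replicate 1 stood above the other controls. The log2 fold change was 1.76 (SE 0.140, edgeR adjusted p = 9.05e-07). The sequence around its RefSeq start (chr9:105053118-105053297, GRCm38.p6, plus strand, 150 bases before and 30 after the start) is shown because this member changed most. Capitals mark the letters CCGGAAG, the core of binding sites of ETS factors, the family to which the mitochondrial gene regulator GABP belongs.
Mrpl3: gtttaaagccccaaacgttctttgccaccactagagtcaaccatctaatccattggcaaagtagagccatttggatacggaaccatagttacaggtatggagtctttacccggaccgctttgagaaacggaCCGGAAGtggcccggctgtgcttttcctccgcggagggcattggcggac

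The next largest rises in the large subunit were those of Mrpl47, Mrpl37, Mrpl35, Mrpl19 and Mrpl46. Mrpl47, which lies near the exit tunnel of the nascent chain, measured 9.94, 8.32 and 7.04 CPM in controls and 22.5, 24.1 and 24.1 CPM after Folfiri (log2 fold change 1.47, SE 0.123, edgeR adjusted p = 1.27e-06). Its gene (ENSMUSG00000037531, chr3:32725397-32737605, minus strand) shares exonic sequence with Actl6a and Ndufb5 on the opposite strand. Mrpl37, found in mitochondrial ribosomes only (ENSMUSG00000028622, chr4:107055874-107066868, minus strand), measured 24.3, 21.7 and 23.4 CPM in controls and 54.1, 56.3 and 60.7 CPM after Folfiri (log2 fold change 1.30, SE 0.0835, edgeR adjusted p = 2.02e-07). These genes were separated between the groups by wide gaps, and their control values varied less than those of Mrpl3 in CPM. Mrpl35 rose from 24.1 ± 1.72 to 51.9 ± 4.17 CPM (SD, n = 3 per group), a log2 fold change of 1.11. Mrpl19, a protein of the subunit interface, rose from 19.7 ± 2.23 to 42.5 ± 2.33 CPM (SD, n = 3), a log2 fold change of 1.10. Its exons overlap those of Gcfc2 on the opposite strand. Mrpl46, of the central protuberance, rose from 12.01 ± 0.908 to 24.9 ± 2.85 CPM (SD, n = 3), a log2 fold change of 1.05, and its exons overlap those of Mrps11 on the opposite strand.

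In the small subunit by symbol, Mrps18a rose most. It is 1 of 3 genes of the Mrps18 family, and its protein sits in the large subunit. The gene (ENSMUSG00000023967, chr17:46110986-46128910, plus strand) measured 24.8, 24.1 and 21.96 CPM in controls and 59.0, 59.2 and 71.6 CPM after Folfiri. The groups did not overlap, and Folfiri replicate 3 was the highest sample. The log2 fold change was 1.42 (SE 0.0986, edgeR adjusted p = 3.46e-07). Both other genes of the family, whose proteins belong to the small subunit, also rose. Mrps18b (ENSMUSG00000024436, chr17:35910379-35916389, minus strand) measured 11.8, 10.3 and 9.10 CPM in controls and 21.9, 25.3 and 24.9 CPM after Folfiri (log2 fold change 1.20, SE 0.115, edgeR adjusted p = 3.65e-06). Mrps18c, the gene of the family that was counted above among those with a bacterial counterpart, had 16.3, 17.4 and 15.3 CPM in controls and 21.3, 21.3 and 25.5 CPM after Folfiri (log2 fold change 0.47, SE 0.104, edgeR adjusted p = 0.00152). The rise of Mrps18c was thus the smallest of the 3. Exons of Mrps18b overlap Gm16279 on the opposite strand, and those of Mrps18c overlap Gm43511 on the same strand.

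The windows before the starts of Mrps18a (chr17:46110854-46111033, plus strand) and Mrps11 (chr7:78782981-78783160, plus strand) are shown in the same frame as that of Mrpl3, the first as the leading gene of the small subunit by symbol and the second because Mrps11 starts head to head with Mrpl46 and their transcripts overlap, so that its window lies within Mrpl46 as GENCODE draws it. Capitals mark CCGGAAG and ATGGCGG, the latter a core of YY1 sites, which in Mrps11 reads CCGCCAT because it is on the other strand.
Mrps18a: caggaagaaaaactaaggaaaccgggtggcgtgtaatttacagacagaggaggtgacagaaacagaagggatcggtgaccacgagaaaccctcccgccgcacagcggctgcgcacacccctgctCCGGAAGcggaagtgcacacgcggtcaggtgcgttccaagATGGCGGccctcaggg
Mrps11: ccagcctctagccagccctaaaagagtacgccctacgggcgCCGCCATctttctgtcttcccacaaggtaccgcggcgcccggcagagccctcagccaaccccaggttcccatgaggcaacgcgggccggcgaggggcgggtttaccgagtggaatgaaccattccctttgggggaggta

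Mrps2 rose from widely scattered control values. It measured 18.0, 10.1 and 7.76 CPM in controls and 29.3, 31.1 and 31.0 CPM after Folfiri (log2 fold change 1.33, SE 0.228, edgeR adjusted p = 0.000277). Control replicate 1 was the highest control, as in Mrpl3, and the coefficient of variation of Mrps2 was 44.8% in controls, the largest of the members, and 3.27% after Folfiri. Leaving out 1 sample at a time gave log2 fold changes between 1.11 and 1.76. Mrps22, found in mitochondrial ribosomes only, measured 22.4, 20.5 and 19.9 CPM in controls and 40.5, 42.5 and 46.4 CPM after Folfiri (log2 fold change 1.04, SE 0.0876, edgeR adjusted p = 1.32e-06). Mrps11, a protein with a bacterial counterpart, rose from 6.69 ± 0.248 to 13.5 ± 1.42 CPM (SD, n = 3), a log2 fold change of 1.01. Mrps5, likewise a core protein, rose from 38.6 ± 2.19 to 76.3 ± 2.37 CPM (SD, n = 3), a log2 fold change of 0.98.

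The falls were led by Mrpl54, the only member with a fall of at least 2-fold. With total counts alone or with the trend with exonic length taken out, its log2 fold change was -0.88 or -0.69, and no member fell 2-fold. Mrpl54 (ENSMUSG00000034932, chr10:81264713-81266934, minus strand), found in mitochondrial ribosomes only, measured 21.6, 24.9 and 25.5 CPM in controls and 10.1, 9.94 and 12.2 CPM after Folfiri (log2 fold change -1.16, SE 0.114, edgeR adjusted p = 4.51e-06). Mrpl48, of the central protuberance like Mrpl46, measured 40.4, 41.7 and 43.2 CPM in controls and 24.1, 24.9 and 26.4 CPM after Folfiri (log2 fold change -0.73, SE 0.0775, edgeR adjusted p = 7.47e-06). The gene (ENSMUSG00000030706, chr7:100545751-100608301, minus strand) shares exonic sequence with Rab6a on the opposite strand. Mrpl24, a core protein (ENSMUSG00000019710, chr3:87919506-87923672, plus strand), measured 42.1, 47.9 and 49.5 CPM in controls and 28.5, 27.1 and 31.1 CPM after Folfiri (log2 fold change -0.68, SE 0.0905, edgeR adjusted p = 4.16e-05). Its exons overlap those of Rrnad1 on the opposite strand. Mrpl28, also a core protein (ENSMUSG00000024181, chr17:26123500-26126613, plus strand), measured 58.0, 67.2 and 65.9 CPM in controls and 40.1, 40.2 and 44.7 CPM after Folfiri (log2 fold change -0.61, SE 0.0855, edgeR adjusted p = 6.27e-05). No sample of one group reached the range of the other in these genes. Mrpl54, Mrpl48, Mrpl24 and Mrpl28 were also the 4 members that stayed lower when scaled by total counts alone. The windows before the starts of Mrpl24 (chr3:87919394-87919573, plus strand) and Mrpl28 (chr17:26123353-26123532, plus strand) are shown as those of leading members that fell, and they hold none of the motifs searched. The windows of Mrpl47 and Mrpl46, which rose, hold none either.
Mrpl24: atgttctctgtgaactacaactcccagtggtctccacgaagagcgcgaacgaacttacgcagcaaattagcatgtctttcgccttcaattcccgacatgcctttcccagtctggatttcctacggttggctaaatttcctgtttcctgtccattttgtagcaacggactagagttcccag
Mrpl28: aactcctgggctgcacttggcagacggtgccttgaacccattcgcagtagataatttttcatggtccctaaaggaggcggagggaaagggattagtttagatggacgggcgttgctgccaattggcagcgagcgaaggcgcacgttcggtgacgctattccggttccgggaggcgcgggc

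Smaller falls were found for Mrpl14 and Mrpl57 in the large subunit. The falls in this paragraph lost their calls when scaled by total counts alone. Mrpl14, a core protein bound by the assembly factor Malsu1, fell from 29.03 ± 2.85 to 20.7 ± 2.82 CPM (SD, n = 3), a log2 fold change of -0.48, and its exons overlap those of Tmem63b on the opposite strand. With the trend with exonic length taken out, its log2 fold change was -0.08 (edgeR adjusted p = 0.520). Mrpl57 fell from 25.7 ± 0.904 to 19.0 ± 1.46 CPM (SD, n = 3), a log2 fold change of -0.44. In the small subunit, Mrps6 measured 19.4, 22.1 and 24.3 CPM in controls and 16.6, 16.3 and 15.4 CPM after Folfiri (log2 fold change -0.44, SE 0.102, edgeR adjusted p = 0.00213). Mrps6 shares exonic sequence with Slc5a3 and Gm49711 on the same strand. Mrps36 measured 26.6, 28.4 and 26.1 CPM in controls and 18.6, 18.9 and 22.2 CPM after Folfiri (log2 fold change -0.44, SE 0.0950, edgeR adjusted p = 0.00137), and with the trend with exonic length taken out its log2 fold change was -0.19 (edgeR adjusted p = 0.0932). The log2 fold changes of Mrps33, Mrps15 and Mrps34 were -0.32, -0.32 and -0.27, with groups that did not overlap. Mrps34 lost its call with the trend with genomic span taken out (-0.15) and in 3 of 6 fits that left out 1 sample (without control replicate 2, Folfiri replicate 1 or Folfiri replicate 2), and Mrps33 lost it without Folfiri replicate 2 (-0.25). Mrps30, the other Mrps gene of the large subunit, measured 32.6, 42.9 and 43.0 CPM in controls and 32.2, 32.4 and 34.1 CPM after Folfiri. Its groups overlapped, since control replicate 1 was below Folfiri replicate 3. Its log2 fold change of -0.26 (SE 0.109, edgeR adjusted p = 0.0451) lost its call when any sample other than control replicate 1 was left out. Mrps34 and Mrps30 changed sign when scaled by total counts alone, with values of 0.0079 and 0.019.

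**Figure D2:**
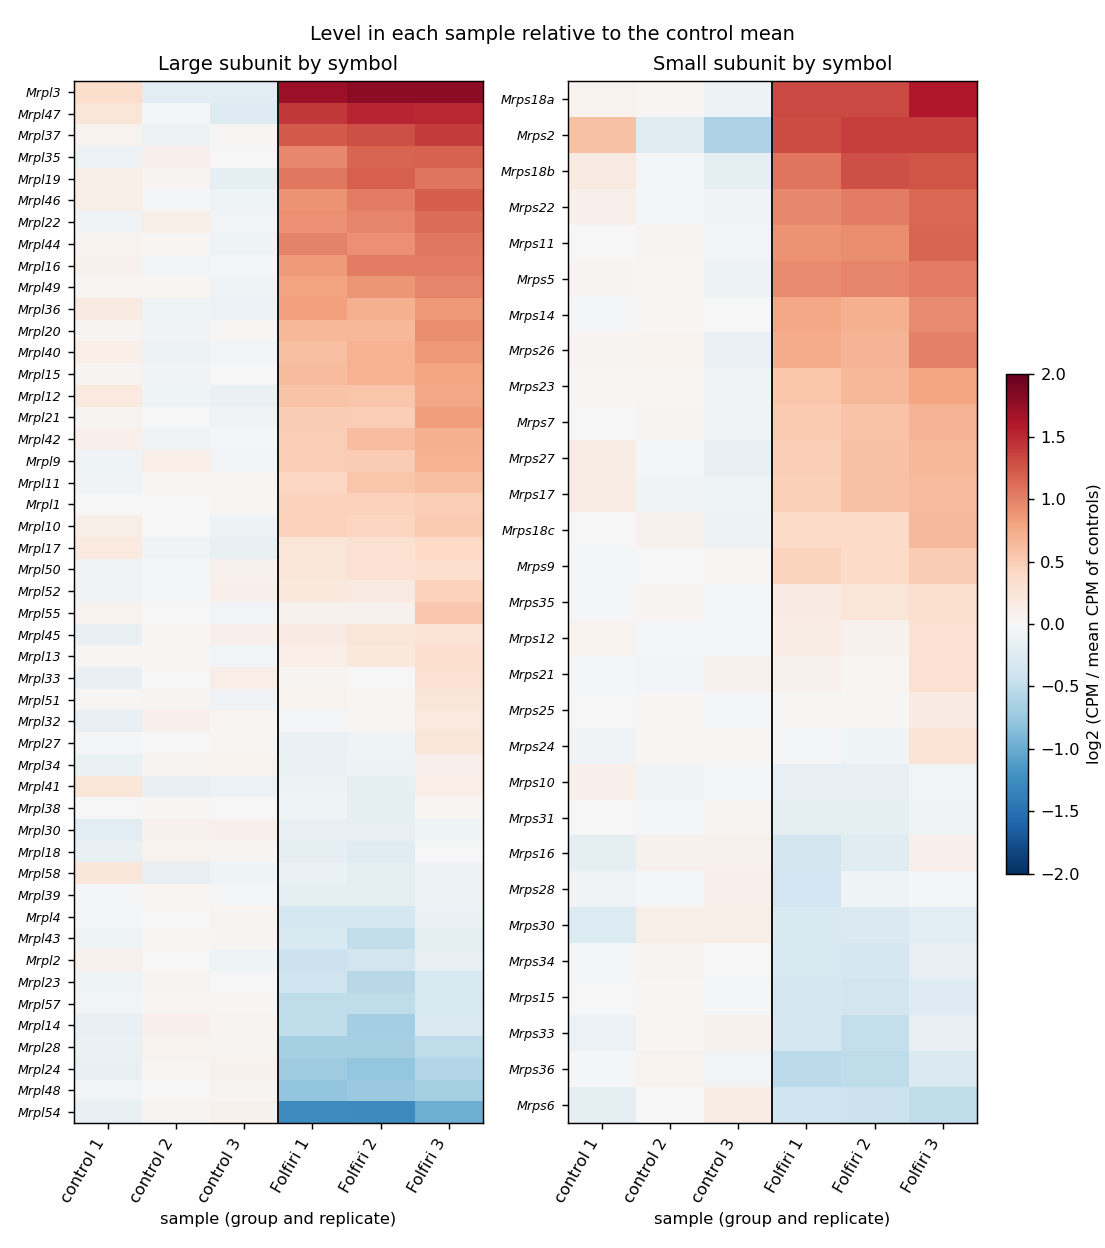
Level of each tested member in each sample, as log2 of its CPM over the mean of the 3 controls, with genes ordered by fold change within each subunit and the vertical line between control and Folfiri samples. Red is above and blue below the control mean, and Folfiri replicate 3 is the highest Folfiri sample for 71 of 77 members.

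Of the 20 members that did not pass, Mrpl27, Mrpl34, Mrpl41, Mrps24, Mrps25 and Mrpl32 had log2 fold changes nearest 0, between -0.05 and 0.07. Their place near 0 depended on the setting. With total counts alone, all 6 but Mrpl41 were called higher, at 0.24 to 0.35. With the trend with exonic length taken out, Mrpl34 (0.51), Mrpl27 (0.40) and Mrpl41 (0.38) were called higher, and with that of genomic span Mrpl34 (0.48) and Mrpl41 (0.43) were called higher and Mrps25 lower (-0.20). Mrpl27 measured 22.8, 23.6 and 24.0 CPM in controls and 21.4, 22.1 and 27.7 CPM after Folfiri (log2 fold change 0.02, SE 0.107, edgeR adjusted p = 0.881). Mrpl34 measured 33.4, 38.4 and 38.6 CPM in controls and 33.6, 34.1 and 39.4 CPM after Folfiri (log2 fold change -0.04, SE 0.0937, edgeR adjusted p = 0.693). Their values interleaved between the groups. Mrps25 measured 32.9, 33.3 and 32.5 CPM in controls and 33.4, 33.5 and 36.8 CPM after Folfiri, without overlap but with a log2 fold change of 0.07 (SE 0.0771, edgeR adjusted p = 0.410). Mrpl53 was at 1, 0 and 0 counts in controls and 2, 2 and 2 counts after Folfiri, too few for a test. The gene (ENSMUSG00000030037, chr6:83109040-83109939, plus strand) shares exonic sequence with Gm42688 on the same strand and Ccdc142os on the opposite strand.

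Levels of different members were compared per kilobase of exon, with all annotated exons of a gene counted. This length can exceed that of the transcript made, and for Mrpl32 it was 4982 bases, its whole genomic span. The order, ranks and spread below therefore also depend on the annotation. They ranged from 1.91 to 60.6 CPM per kilobase in controls (median 10.1) and from 3.08 to 58.8 after Folfiri (median 12.8). Mrpl34, Mrps21 and Mrpl28 were the most abundant in controls, at 60.6, 49.3 and 46.2 CPM per kilobase, and Mrps11, Mrps35 and Mrpl47 the least, at 3.08, 2.98 and 1.91. After Folfiri, Mrpl34 was still first at 58.8 CPM per kilobase. Mrpl12, the stalk protein that contacts translation factors, moved from rank 6 in controls to rank 2. Its level was 61.5, 50.8 and 48.7 CPM in controls and 79.3, 79.0 and 92.2 CPM after Folfiri (log2 fold change 0.64, SE 0.102, edgeR adjusted p = 0.00018). At 54.5 CPM per kilobase it was level with Mrps21, which was also at 54.5 and whose log2 fold change of 0.15 did not pass (SE 0.0902, edgeR adjusted p = 0.158), though it was called with total counts alone (0.42) and with the trend with exonic length taken out (0.65). Mrpl28 went from rank 3 to rank 10 and Mrpl54 from rank 8 to rank 36, whereas Mrpl3 went from rank 73 to rank 44. The ranks of the 77 members in controls and after Folfiri had a Spearman rho of 0.84, over libraries that share their base composition and gene lengths. The spread of the levels, as the SD of log2 CPM per kilobase over the members of a sample, was 1.06 to 1.16 in controls and 0.998 to 1.02 after Folfiri, so the members lay closer together in every Folfiri sample.

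Summed over each subunit by symbol, member transcripts were higher in every Folfiri sample. The large subunit sum was 1530, 1564 and 1548 CPM in controls and 1825, 1863 and 2048 CPM after Folfiri. The small subunit sum was 713, 719 and 700.4 CPM in controls and 899, 915 and 1014 CPM after Folfiri. The ratio of the sums, large to small, was 2.15, 2.18 and 2.21 in controls and 2.03, 2.04 and 2.02 after Folfiri. The ratio was lower in each Folfiri sample than in each control, by 0.149 between the means of 2.18 ± 0.0318 and 2.03 ± 0.00859 (SD, n = 3), and it does not depend on scaling. With subunits by position the ratio was 2.52, 2.62 and 2.65 in controls and 2.43 in each Folfiri sample. Both ratios leave out the 5 ribosomal proteins with other names, described below. Of these, Dap3 fell from 102.6 to 45.9 CPM and Gadd45gip1 from 30.3 to 16.3 CPM (means, n = 3). Chchd1 rose from 28.9 to 46.4 CPM, Aurkaip1 from 41.7 to 51.6 CPM and Ptcd3 from 37.1 to 43.6 CPM. The lower ratio thus holds for genes with Mrpl and Mrps symbols, and the balance of complete subunits was not tested. Folfiri replicate 3 had the highest value among the Folfiri samples for 71 of 77 members, compared with 40.0% of all tested genes, and its share of mitochondrial counts was the highest as well, at 4.44% against 3.95% and 4.08% in the other two. Without it, the median log2 fold change of the large subunit was 0.20. The small subunit median without this sample was 0.21, with 22 large and 14 small members higher and 10 and 5 lower. The ratio difference was then -0.144. Why this sample stood apart was not tested.

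**Figure D3:**
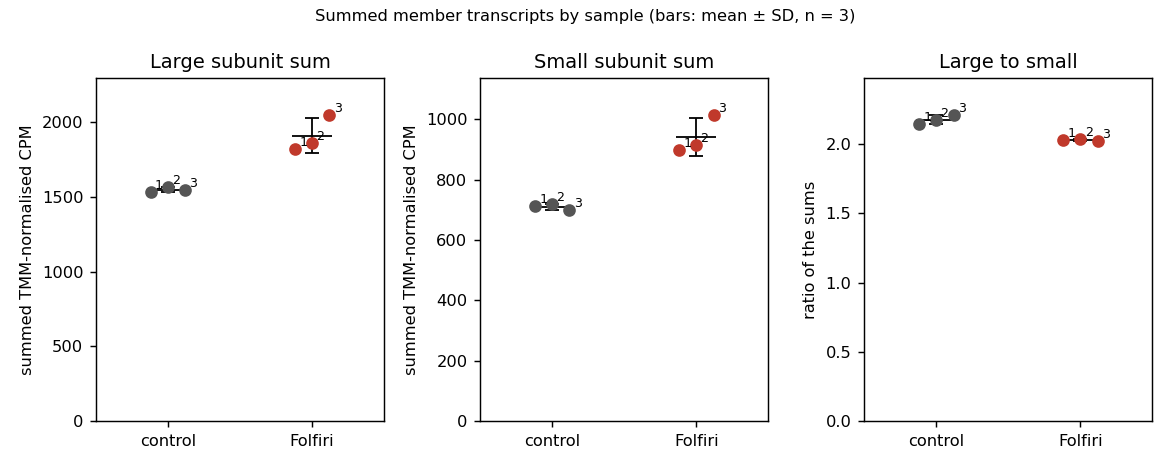
Summed CPM of the large subunit and small subunit members and the ratio of the sums in each sample (numbers are replicates, bars are mean ± SD, n = 3, axes start at 0). Folfiri samples lie above controls in both sums (large 1825 to 2048 against 1530 to 1564) and below them in the ratio (2.02 to 2.04 against 2.15 to 2.21). Ribosomal proteins with other names, such as Dap3, are not in these sums or the ratio.

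A further 5 proteins of the mitochondrial ribosome have other names, and they moved in both directions. Dap3, a small subunit protein that binds GTP and was first described in cell death, fell the most. It measured 95.0, 107 and 106 CPM in controls and 45.6, 45.2 and 46.9 CPM after Folfiri (log2 fold change -1.16, SE 0.0742, edgeR adjusted p = 1.99e-07). Gadd45gip1, a large subunit protein, measured 27.0, 31.5 and 32.2 CPM in controls and 15.7, 14.8 and 18.4 CPM after Folfiri (log2 fold change -0.89, SE 0.108, edgeR adjusted p = 2.18e-05). Chchd1 rose, with 28.3, 28.95 and 29.5 CPM in controls and 43.9, 43.6 and 51.6 CPM after Folfiri (log2 fold change 0.68, SE 0.0879, edgeR adjusted p = 3.35e-05). The small subunit proteins Aurkaip1 and Ptcd3 rose by 0.31 and 0.23 on the log2 scale (edgeR adjusted p = 0.00695 and 0.024), and Ptcd3 lost its call with the trend with genomic span taken out (0.06). Levels of Dap3 and Gadd45gip1 after Folfiri were all below the lowest control, and those of Chchd1 all above the highest.

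Most factors that assemble the mitochondrial ribosome rose. Of 24 assembly factors, 19 rose (79.2%) and 4 fell (16.7%), against 40.3% and 38.8% of all tested genes. Their median log2 fold change was 0.95. With total counts alone, 19 rose and 3 fell, the median was 1.23 and Mettl15 lost its call. Fastkd2, an RNA-binding protein needed for the large subunit rRNA, had 9.33, 4.24 and 4.32 CPM in controls and 36.4, 41.1 and 42.4 CPM after Folfiri (log2 fold change 2.72, SE 0.238, edgeR adjusted p = 1.81e-06). Mrm3, a methyltransferase of that rRNA, and Mtg2, a GTPase of large subunit assembly, rose by 1.70 and 1.59 on the log2 scale, and Rcc1l, a guanine nucleotide exchange factor of the same process, by 1.36. Control replicate 1 was the highest control in each of these 4 genes. Malsu1, which keeps the subunits apart until the large one is mature, had 20.3, 24.0 and 24.8 CPM in controls and 12.2, 12.1 and 12.4 CPM after Folfiri (log2 fold change -0.91, SE 0.101, edgeR adjusted p = 1.06e-05). The GTPase Mtg1, the assembly protein Mpv17l2 and the small subunit rRNA methyltransferase Mettl15 also fell, with log2 fold changes of -0.91, -0.57 and -0.36. With the trend with genomic span taken out, Mettl15 was at 0.06 and was not called.

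Among 13 translation factors, 7 rose (53.8%) and 4 fell (30.8%), against 40.3% and 38.8% of all tested genes. Their median was 0.51. Scaled by total counts alone, 9 rose and 2 fell (median 0.79), and Mtif2 and Gfm2 lost their calls. Taco1, which activates translation of mt-Co1, and the release factors Mtrf1 and Mtrf1l rose by 1.43, 1.36 and 1.30 on the log2 scale, and Mtfmt, which formylates the initiator tRNA, rose by 0.83. Guf1, a GTPase of elongation, had 34.7, 35.3 and 35.1 CPM in controls and 14.1, 13.7 and 13.96 CPM after Folfiri (log2 fold change -1.33, SE 0.0781, edgeR adjusted p = 1.11e-07). Oxa1l, which inserts the products into the inner membrane, the initiation factor Mtif2 and the recycling factor Gfm2 had log2 fold changes of -0.55, -0.52 and -0.49. Tufm, the elongation factor that brings tRNAs to the ribosome, was the most abundant of the list in CPM but did not pass (log2 fold change -0.09, SE 0.0671, edgeR adjusted p = 0.227). It was called higher with total counts alone (0.19) and lower with the trend with exonic length taken out (-0.19). Of 20 genes that charge mitochondrial tRNAs, 10 rose (50%) and 7 fell (35%), against 40.3% and 38.8% of all tested genes. Their median was 0.30. With total counts alone, 10 rose, 6 fell and the median was 0.58. The largest rises were those of the synthetases Mars2 (2.27), Ears2 (1.71), Hars2 (1.61) and Yars2 (1.23), and the falls included those of Iars2 (-1.96), Fars2 (-1.02) and the amidotransferase subunit Gatb (-0.86), all log2 fold changes. With the trend with genomic span taken out, Fars2 was at -0.13 and lost its call. Iars2 fell from 85.7 ± 8.85 to 21.99 ± 1.68 CPM (SD, n = 3), and Mars2 rose from 5.15 ± 1.61 to 25.3 ± 0.788 CPM (SD, n = 3).

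Cytosolic ribosomal proteins, and nuclear-encoded respiratory chain subunits to a smaller extent, mostly fell. Of 83 genes named as cytosolic ribosomal proteins, 3 rose (3.61%) and 77 fell (92.8%), against 40.3% and 38.8% of all tested genes. Their median log2 fold change was -0.85. The 3 that rose, Rpl7l1 (1.64), Rps19bp1 (0.98) and Rps27l (0.68), are related to ribosomal proteins by name, and the first 2 act in making ribosomes rather than in the ribosome. Of 77 nuclear genes for subunits of oxidative phosphorylation complexes, 7 rose (9.09%) and 44 fell (57.1%), with a median of -0.31. Scaled by total counts alone, 19 of these rose and 23 fell, with a median of -0.04, and 3 of the cytosolic genes rose and 72 fell, with a median of -0.57. The cytosolic ribosomal protein sum was 63726 to 79204 CPM in controls and 37620 to 44398 CPM after Folfiri. All these families were measured in the same 6 samples. The TMM factors were 0.880 to 0.966 in controls and 1.10 to 1.11 after Folfiri, and the part of the cytosolic family in this scaling was not tested.

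**Figure D4:**
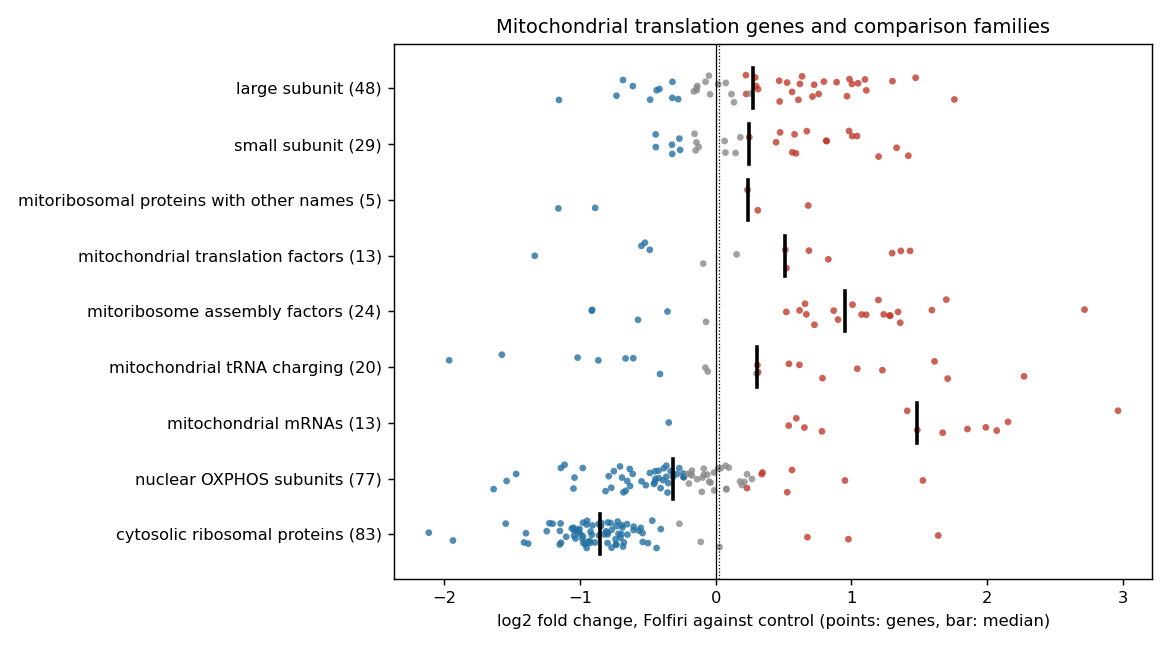
Log2 fold changes (Folfiri against control) of single genes in each family, red higher, blue lower and grey not past the threshold, with black bars at the family medians and a dotted line at the median of all tested genes (0.02). Medians run from -0.85 in cytosolic ribosomal proteins to 1.49 in mitochondrial mRNAs, with 0.27 and 0.25 for the large and small subunit members.

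Members had compact genes, with a median genomic span of 7905 bases against 19291 for all tested genes and a median exonic length of 2533 against 3936 bases. Across the 77 members, the log2 fold change had a Spearman rho of 0.11 with span, 0.22 with exonic length and -0.17 with GC content. Over all tested genes these were -0.0074, 0.053 and -0.046. With the control level per kilobase, rho over the members was -0.40, but the same controls enter both values. When the trend of all genes with exonic length was taken out, the subunit medians were 0.37 (large) and 0.48 (small). The exons of 32 members share sequence with another annotated gene, 27 on the opposite strand and 7 on the same strand, and the library kit does not mark strand. Among members without such overlap, 14 of 27 in the large subunit rose and 6 fell (median 0.26), and 9 of 18 in the small subunit rose and 3 fell (median 0.21). Mrpl23, which fell (log2 fold change -0.41), has a processed pseudogene, Mrpl23-ps1, with 356 to 485 counts in controls and 333 to 450 after Folfiri against 426 to 569 and 456 to 578 for Mrpl23, so its value is uncertain.

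Many members start close to a gene on the opposite strand, an arrangement searched for after the values were seen. Within 1000 bases of the member's start and on the other strand, 33 of 77 members (42.9%) had the start of another protein-coding gene, against 2043 of 12864 tested protein-coding genes (15.9%). In 30 pairs with both genes tested, 14 had both genes called in the same direction (46.7%) and 6 in opposite directions (20%), against 36.4% and 27.4% of 932 pairs in all. The rho of the fold changes was 0.27 over these 30 pairs and 0.15 over the 932, and overlapping transcripts were part of both sets. Mrpl46 and Mrps11 start 412 bases apart in GENCODE, with overlapping transcripts, and rose by 1.05 and 1.01 on the log2 scale. Mrpl54, the member that fell most, starts 26 bases from Apba3, which fell with it (-1.27), while Mrpl49 starts 59 bases from Fau, a cytosolic ribosomal protein gene, and rose (0.89) as Fau fell (-1.28). Mrpl37 and Mrps18b rose beside Cyb5rl (2.58) and Ppp1r10 (2.76), and Mrpl10 rose (0.47) beside Lrrc46, which fell (-2.14).

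**Figure D5:**
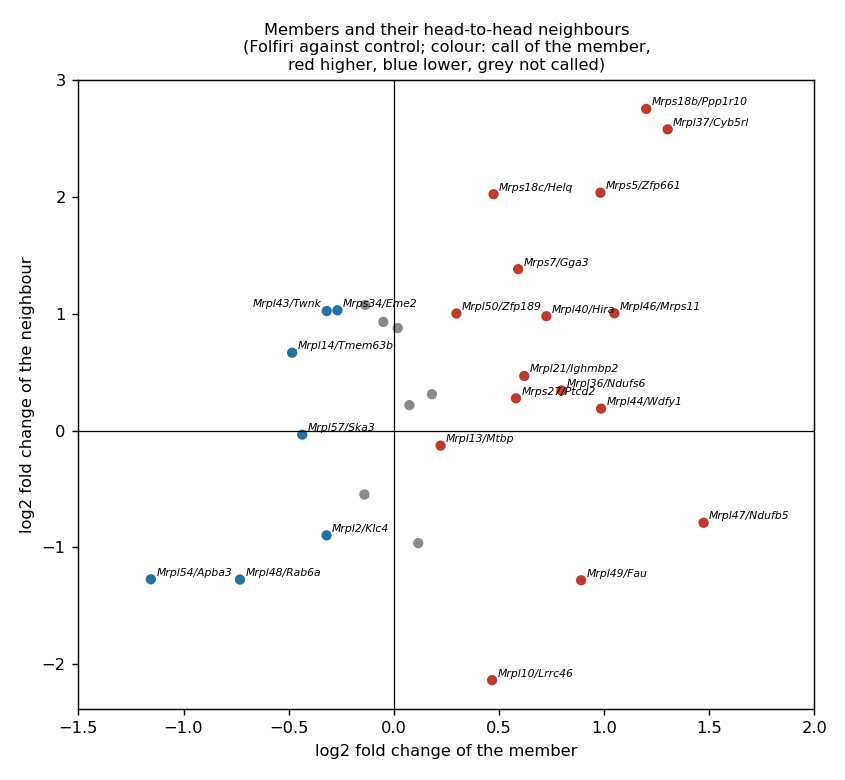
Log2 fold change (Folfiri against control) of members (horizontal axis) and of the genes that start head to head with them (vertical axis), 1 point per pair, red where the member rose, blue where it fell and grey where it did not pass, with names for called members. Pairs in the upper right and lower left moved together, such as Mrpl46/Mrps11 (1.05 and 1.01), and Mrpl49/Fau in the lower right (0.89 and -1.28) moved apart.

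The promoter windows of RefSeq, from 250 bases before to 50 after the start, were found for 69 of 78 members and were searched on both strands after the values were seen. The letters CCGGAAG, capital in the windows of Mrpl3 and Mrps18a, were in 24 of 69 members (34.8%), against 18.3% of 10089 tested genes and 12.3% of all 16538 protein-coding windows. GCGCATGCG, a core of NRF1 sites, was in 7 (10.1%), against 3.71% and 2.52%. ATGGCGG, capital in Mrps18a and Mrps11, was in 13 (18.8%), against 8.25% and 5.61%, while CACGTG, the E-box bound by Myc, was in 5 (7.25%), against 9.99% and 8.1%. These 4 motifs do not contain each other. By call, ATGGCGG was in 10 of 37 members that rose, 1 of 13 that fell and 1 of 18 that did not pass, and CCGGAAG in 12 of 37, 3 of 13 and 8 of 18. Any of the first 3 motifs was in 20 of 37 members that rose (54.1%), 4 of 13 that fell (30.8%) and 10 of 18 that did not pass (55.6%). Over all tested genes it was in 30.2% of those that rose and 23.3% of those that fell, CCGGAAG in 21.6% and 14.4%, and ATGGCGG in 8.77% and 7.64%. Matches describe these letters only, and Mrpl13, Mrpl15, Mrpl19, Mrpl38, Mrpl4, Mrpl54, Mrps28, Mrps34 and Mrps35 have no entry.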

How the data were processed

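RNA of 3 control and 3 Folfiri-treated MTO54 cultures was sequenced after poly(A) selection with a kit that does not mark strand. The authors aligned reads with STAR 2.5.2 (per the labels), counted them per gene with Rsubread on GENCODE annotation of mm10/GRCm38 and deposited whole-number counts without normalization. The labels give 2 days of treatment and a figure legend of the study 4 days. The strand setting and the treatment of reads with several positions are not given in the sources used here. The counts per sample, 22103591 to 30098210, set the precision. From them, edgeR 4.0.16 in R 4.3.3 was run with filterByExpr, TMM scaling, the quasi-likelihood test and Benjamini-Hochberg adjustment over all tested genes, with a threshold of 0.05, after the procedure was tested on simulated data. SEs were derived from the fold change and its F value. Symbols, positions and exonic lengths came from GENCODE vM21, in which 24124 of 24190 IDs were found. The members, lists and tests were chosen with earlier results of these data known. Named genes were up to 6 rises and 6 falls per subunit with the largest change, past the threshold and without overlap of groups, the 6 uncalled members nearest 0, the 3 most and 3 least abundant per length, Mrps18a, Mrps18b, Mrps18c, Mrps30, Mrps36, Mrpl12, untested members, and in each list the 4 largest called changes per direction. Genes named beyond this, with overlaps, in pairs or in families, were picked once values were known. The alternatives comprised other scalings and filters, DESeq2 1.42.0, the replicate number as a block, leaving out each sample, trends with gene features as offsets (loess span 0.3), and subunits by position. The 2 mitochondrial rRNAs were not analysed here, and 1 list gene within the naming rule is not reported here.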

Additional observations from a re-analysis of the deposited data

How the results depend on the processing

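With total counts as the only scaling, 4 large and 0 small members were lower, and the medians were 0.55 (large), 0.52 (small) and 0.30 (all tested genes). The higher share of all calls was then 63.3%, against 51.0% with TMM. In 13 of 77 members the sign turned, 11 of them not called with TMM, with values from 0.0079 (Mrps34) and 0.019 (Mrps30) to 0.24 (Mrpl34), and it also turned for Tufm (0.19) and Gabpa (0.18). The median of all tested genes was 0.076 with upper quartile scaling, 0.27 without a filter and 0.30 in DESeq2's Wald test. The last 2 also include genes with few counts, and their medians lay above those of both subunits. With the trend with genomic span as an offset, the small subunit median was 0.34 and that of all genes 0.0066, and the sign turned in 8 members, with Mrpl41 (0.43), Mrpl34 (0.48), Mrpl45 (-0.046) and Mrps25 (-0.20) among them, and in Mettl15 (0.063). With exonic length, the medians were 0.37 (large), 0.48 (small) and 0.0077 (all), and the sign turned in 6 members, with Mrpl41 (0.38), Mrpl34 (0.51) and Mrps28 (0.33) among them. Calls were lost by 12, 7 and 5 members with total counts, span and exonic length. With subunits by position, the small subunit median was 0.35. The cause of these shifts was not tested, except that total counts leave out the TMM factors.

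Leaving out 1 sample at a time gave 22 to 26 large members higher and 8 to 13 lower, 3 to 6 small members lower (3 without Folfiri replicate 2), and medians of 0.20 to 0.33 (large), 0.21 to 0.29 (small) and 0.017 to 0.044 (all tested genes). In these 6 fits, 11 of the 57 called members lost their call at least once. Control replicate 1 was the highest control for 43.8% of all tested genes and for 30 of 77 members. Without it, 26 large and 16 small members were higher and 13 and 6 lower. Deviations of control and Folfiri samples with the same number had correlations of 0.0394, -0.193 and 0.0432. For samples with different numbers the correlations ranged from -0.154 to 0.198. These values show no pairing by number, but with so few samples per group they cannot exclude it. With the replicate number as a block, 26 large members were higher and 10 lower and 15 small members were higher and 6 lower, and no count of members changed.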

Other observations

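The mRNAs that the mitochondrial ribosome translates mostly rose after Folfiri. Of 13 mitochondrial mRNAs, 12 rose (92.3%) and 1 fell (7.69%) in edgeR, against 40.3% and 38.8% of all tested genes. Their median log2 fold change was 1.49. mt-Nd3 and mt-Nd2, subunits of complex I, rose most, with log2 fold changes of 2.96 and 2.15, followed by mt-Cytb of complex III (2.07) and mt-Nd4l (1.99). mt-Nd3 measured 119, 69.8 and 70.4 CPM in controls and 603, 635 and 789 CPM after Folfiri. mt-Co1, the catalytic subunit of complex IV and the most abundant of the 13 in CPM, fell from 11530 ± 1749 to 9070 ± 524 CPM (SD, n = 3), with a log2 fold change of -0.35 (edgeR adjusted p = 0.0404). This call depended on the scaling, since with total counts alone the log2 fold change of mt-Co1 was -0.06 (edgeR adjusted p = 0.547), and 12 of the 13 rose and 0 fell. The share of counts on mitochondrial genes was 2.09% to 2.36% in controls and 3.95% to 4.44% after Folfiri. RNA was selected by poly(A), and the part of that selection in these values was not tested.

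Of 9 genes for known regulators of nuclear genes of mitochondrial proteins, 3 rose and 3 fell (33.3% each). Among all tested genes, 40.3% rose and 38.8% fell. The median log2 fold change of the 9 genes was -0.10. With total counts alone, 5 rose, 3 fell and the median was 0.18. Pprc1, a coactivator of the PGC-1 family, had 44.8, 27.2 and 23.8 CPM in controls and 187, 203 and 197 CPM after Folfiri (log2 fold change 2.61, SE 0.190, edgeR adjusted p = 4.76e-07). Myc had 95.4, 84.8 and 73.7 CPM in controls and 288, 287 and 290.5 CPM after Folfiri (log2 fold change 1.77, SE 0.0933, edgeR adjusted p = 5.57e-08). Yy1 and Nrf1 fell, with log2 fold changes of -0.86 and -0.58. Gabpa, Gabpb1 and Esrra did not pass, with log2 fold changes of -0.10, -0.14 and 0.14. These depended on the setting, since with total counts alone Gabpa (0.18) and Esrra (0.42) were called higher and Gabpb1 was at 0.13. With the trend with genomic span taken out Gabpa (-0.27) and Gabpb1 (-0.20) were called lower, as was Gabpa with that of exonic length (-0.19). Ppargc1a (log2 fold change 1.16) and Ppargc1b (-1.05) passed at levels of 1.56 CPM or less in every sample.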
